A study of Caenorhabditis elegans with 4 samples.

Results

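Chromosome III of Caenorhabditis elegans carried 255 of the 1773 peaks in 3 deposited lists from a ChIP-seq experiment with a control antibody, and these 255 peaks are described here. They were taken by chromosome name alone, as every entry placed on III in either replicate list or in the combined list of the series. Replicate 1 gave 13 of its 153 peaks, replicate 2 gave 136 of its 789 and the combined list gave 106 of its 831. A region found in several lists is counted once in each, so the 255 entries share sources and are not independent of each other.

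ChIP-seq recovers DNA bound to an antibody from fixed, sheared chromatin and locates it by sequencing. All libraries were made from mixed-stage N2 embryos, the wild-type laboratory strain, grown at 20 °C as a population of males and hermaphrodites and fixed in 2% formaldehyde for 30 minutes. The antibody was AB46540 NIgG, an affinity-purified rabbit polyclonal directed to mouse IgG, which has no intended target in the worm. Of the 4 samples, the 2 IgG ChIP libraries have peak lists, and the 2 input DNA libraries were not analysed here.

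As background, a control IgG library samples the chromatin that is carried through an immunoprecipitation without a specific target, and its peaks are used to judge which peaks of a specific antibody can be trusted. In many species such control peaks are known at repeats whose copies are collapsed in the reference and at very active genes. The chromosomes of C. elegans are holocentric, with kinetochores along their whole length. Its autosomes have a gene-dense centre with little recombination, flanked by arms with more repeats and more recombination.

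Coordinates are those of WormBase build WS220, as the files give them. The gene table at hand is of another build, so no gene, exon or sequence was assigned to any peak. Each peak has a score from the authors' peak caller on a scale that the files do not name, and it is the authors' own value. Scores were compared only within one list. Sequencing depth is unknown for both libraries, so a missing peak does not show that signal was absent. The labels do not say that the 2 IgG libraries came from separate cultures, and they do not tie a library to an instrument or site.

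Chromosome III was sparsely covered with peaks in replicate 1 and densely in replicate 2. Replicate 1 had 0.945 peaks per Mb on III (95% exact Poisson interval 0.503 to 1.62), the lowest of the 6 nuclear chromosomes, against 1.62 per Mb on the other 5 together. Replicate 2 had 9.89 peaks per Mb on III (8.30 to 11.7), the highest of the 6, against 7.57 per Mb on the other 5. The combined list had 7.71 peaks per Mb on III (6.31 to 9.32), rank 5 of the 6, against 8.33 per Mb elsewhere. Extents run to the last peak end found in any list, which was 13754083 bp for III. These differences were not tested, since a comparison of 1 chromosome with 5 others cannot give an exact permutation p below 0.167. The intervals cover counting error only and take no account of peaks that cluster.

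**Figure D1:**
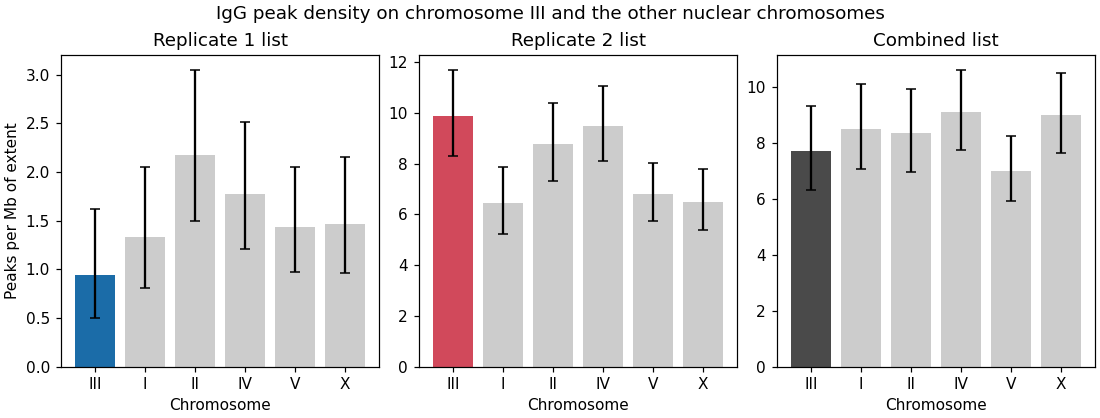
Peaks per Mb of chromosome extent in each list, with III first in colour and the other nuclear chromosomes in grey. Bars are counts divided by extent and error bars are 95% exact Poisson intervals; III is lowest at 0.945 in replicate 1, highest at 9.89 in replicate 2, and at 7.71 in the combined list.

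In the replicate lists, III stood closer to the other chromosomes by covered length than by peak count. Peaks covered 18766 bp of III in replicate 1, or 0.136% of its extent, against 0.156% on the other 5 chromosomes. In replicate 2 they covered 103936 bp, or 0.756%, against 0.668% elsewhere. In the combined list they covered 34216 bp, or 0.249%, against 0.271% elsewhere. Replicate 1 thus had few peaks on III, with a high median width. Its median width on III was 961 bp (range 262 to 5036 bp), the highest of the 6 chromosomes, against 508 bp elsewhere. With 13 peaks, the 95% interval of that median was 444 to 2770 bp, which includes 508 bp. Of the 13 replicate 1 peaks 6 were over 1 kb wide, or 46.2% (exact 95% interval 19.2 to 74.9%). The background on the other chromosomes was 22.9%, also within the interval.

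Replicate 2 and combined peaks on III were of about the same width as elsewhere. Replicate 2 had a median width of 417 bp on III (range 147 to 5026 bp), against 470 bp elsewhere, and 27 of its 136 peaks were over 1 kb wide (19.9%, 13.51 to 27.6%, background 22.5%). The combined list had a median width of 210 bp on III (range 146 to 2537 bp), against 228 bp elsewhere, with 4 of 106 peaks over 1 kb wide (3.77%, 1.04 to 9.38%, background 2.92%). The narrow end of the combined list was sharp. Of its 106 III peaks 77 were under 300 bp wide (72.6%), a share that was not counted on the other chromosomes. A width of exactly 146 bp was found in 5 of the 106. It was the smallest width on each of the 6 nuclear chromosomes in that list, and 28 nuclear peaks had it, so it was not particular to III.

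By peak count, the centre of III held close to an even share in every list, when it was taken as 1 of 3 equal sections. Taken wider, it held less than an even share in replicate 2, as did the centres of the other 5 chromosomes together. With III divided into 3 sections of equal length, the boundaries lay at 4.58 and 9.17 Mb, and an even spread would put 33.3% of peak midpoints in the central section. The combined list had 36 of 106 peaks there (34.0%, 25.04 to 43.8%, background 26.4%). Its left section held 39 and its right section 31 peaks. Replicate 2 had 42 of 136 peaks in the centre (30.9%, 23.2 to 39.4%, background 24.2%), with 51 to the left and 43 to the right. Replicate 1 had 4 of 13 in the centre (30.8%, 9.09 to 61.4%, background 28.6%), with 5 to the left and 4 to the right. All 3 intervals include the even share and the background. A wider central section, 50% of the extent, held 46 of 106 combined peaks (43.4%, 33.8 to 53.4%, background 40.8%). In replicate 2 it held 49 of 136 peaks (36.0%, 27.98 to 44.7%, background 43.2%). That interval lies below the even 50% but includes the background, and it takes no account of peaks that cluster. The shares on II and X were 36.8% and 30.4%. In replicate 1 the wider section of III held 7 of 13 (53.8%, 25.1 to 80.8%, background 42.9%).

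Finer division showed that the even spread of replicate 2 over the sections was made of a few crowded stretches. With III divided into 10 bins of equal length, replicate 2 had 29 peaks in bin 1 at the left end, 26 in bin 6 and 28 in bin 10 at the right end, and between 3 and 12 in each of the others. The outer bins, 1 and 10, together held 57 of its 136 peaks (41.9%, 33.5 to 50.7%). On the other 4 autosomes the outer bins held 22.3% of replicate 2 peaks. The combined list was flatter, with 27 of 106 peaks in the outer bins (25.5%, 17.5 to 34.9%, background 21.6%) and 3 to 14 peaks in every bin. Replicate 1 had 4 of 13 peaks in the outer bins (30.8%, background 21.1%), all 4 in bin 10. It had no peak in bin 1, where replicate 2 had 29 and the combined list 14. Bin 7, to the right of the crowded bin 6, had no peak in replicate 1, 4 in replicate 2 and 3 in the combined list.

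**Figure D2:**
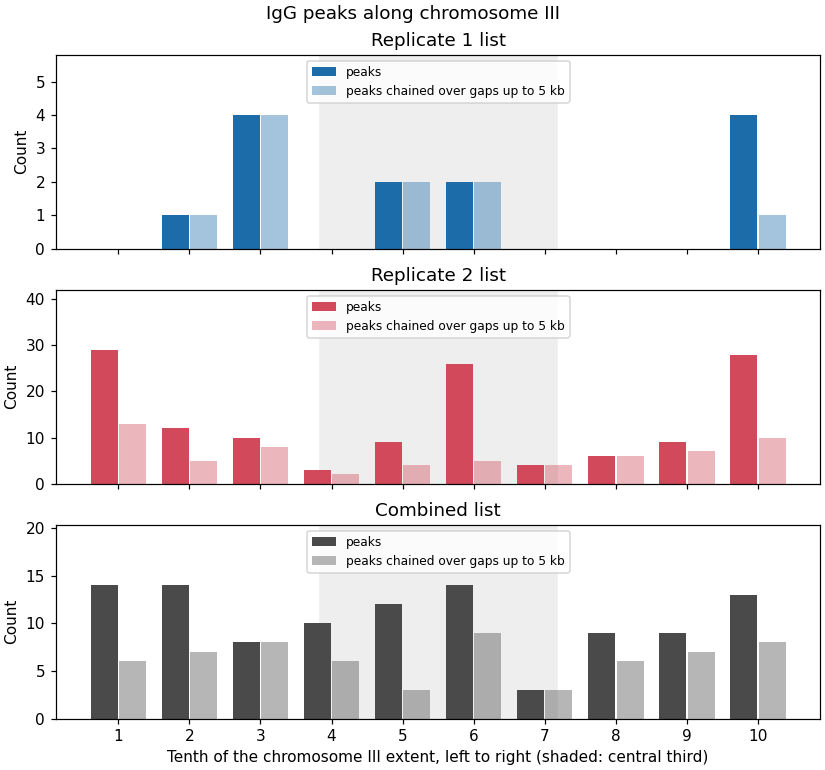
Number of peaks in each of 10 equal bins of III (dark bars) and number of regions after peaks separated by at most 5 kb were chained into 1 (pale bars), for each list; the central section is shaded. In replicate 2, bins 1, 6 and 10 hold 29, 26 and 28 peaks but 13, 5 and 10 chained regions.

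Crowding can be counted by chaining peaks separated by at most 5 kb. In replicate 2 the 136 peaks of III then formed 64 regions, of which 43 were single peaks and 9 were runs of at least 4 peaks. These runs held 67 peaks, or 49.3% of the III peaks, against a background of 28.9% on the other chromosomes. The X had a similar share, 46.1%. In the combined list, 35 of 106 peaks lay in 7 runs (33.0%, background 30.2%). Replicate 1 had a single run on III, of 4 of its 13 peaks there (30.8%, background 6.43%). It also had 1 run each on II and IV, of 5 and 4 peaks (15.2% and 12.9%), and none on I, V and X. After chaining, III held 13.9% of the nuclear regions of replicate 2 (10.8 to 17.3%), against 17.2% of its nuclear peaks (14.7 to 20.1%), and 13.75% of the summed nuclear extent. The centre of III held 23.4% of the chained regions of replicate 2 (13.8 to 35.7%).

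The run with the most peaks in the whole replicate 2 list lay in the centre of III. Its 18 peaks extended over 42222 bp, at 7405966 to 7448187, and covered 15444 bp, or 36.6% of that span. Their scores ran from 56.29 to 1701.32 with a median of 109. The highest belonged to a 2277 bp peak at 7444295 to 7446571, next to one of 1556 bp that scored 800.84, so the strongest part lay at the right edge of the run. The combined list had 6 peaks in this span with scores of 1.72 to 3.77, of which 5 overlapped a replicate 2 peak, and replicate 1 had none. Without this run, replicate 2 had 24 of 118 III peaks in the central section (20.3%, 13.49 to 28.7%).

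Other crowded places differed between the lists in how many peaks each called. At 6566984 to 6574431 replicate 2 had a run of 6 peaks with scores of 64.91 to 337.03, and the combined list had a run of 10 peaks over 6566951 to 6576102, its largest on III, with scores of 3.11 to 5.38. At 324099 to 332642 and at 13074859 to 13085814 replicate 2 had runs of 7 peaks each. The second of these was broad and nearly continuous, with 80.2% of its span covered by peaks 579 to 2037 bp wide. In the first, 25.7% of the span was covered, by peaks of 184 to 513 bp. Neither the combined list nor replicate 1 had a peak within either span. Short runs of 4 to 6 replicate 2 peaks lay at 424702, 1089421, 2077728 and 7594628. Of these, the ones at 1089421 and 2077728 each had a combined run of 4 peaks at nearly the same place.

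The right-end run near 13.59 Mb was the only run of at least 4 peaks that replicate 1 had on III. It spanned 14125 bp over both replicate lists, at 13584735 to 13598859, and ended 155 kb before the last III peak of any list. Replicate 1 called 4 peaks in it, with scores of 53.64, 61.80, 50.26 and 93.51 from left to right. These include the 3 lowest scores of replicate 1 on III, and the peak at 13589366 had the lowest score of the entire replicate 1 list, 50.26. The widest of them was that same peak, with 2770 bp. The 4 peaks made up 34.5% of the length that replicate 1 covered on III. Without them, the median replicate 1 score on III was 180 over the other 9 peaks, against 93.51 over all 13.

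Replicate 2 divided the same stretch into 10 peaks covering 9577 bp, or 74.8% of its span there. Their scores ran from 62.63 to 238.19 with a median of 77.8, against 87.3 for the other III peaks of replicate 2. The highest of the 10 was a 2453 bp peak at 13589688 to 13592140, which lay at the place of the lowest scoring replicate 1 peak. Within the run the replicates overlapped over 4603 bp, equal to 71.2% of the length called in replicate 1 and 48.1% of that in replicate 2. Only 2 combined peaks lay there, one of 228 bp that scored 2.57 and one of 427 bp that scored 4.19, and both overlapped peaks of both replicates. A combined peak 177 bp wide at 13643527, to the right of the run, scored 10.51 and overlapped neither replicate list.

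**Figure D3:**
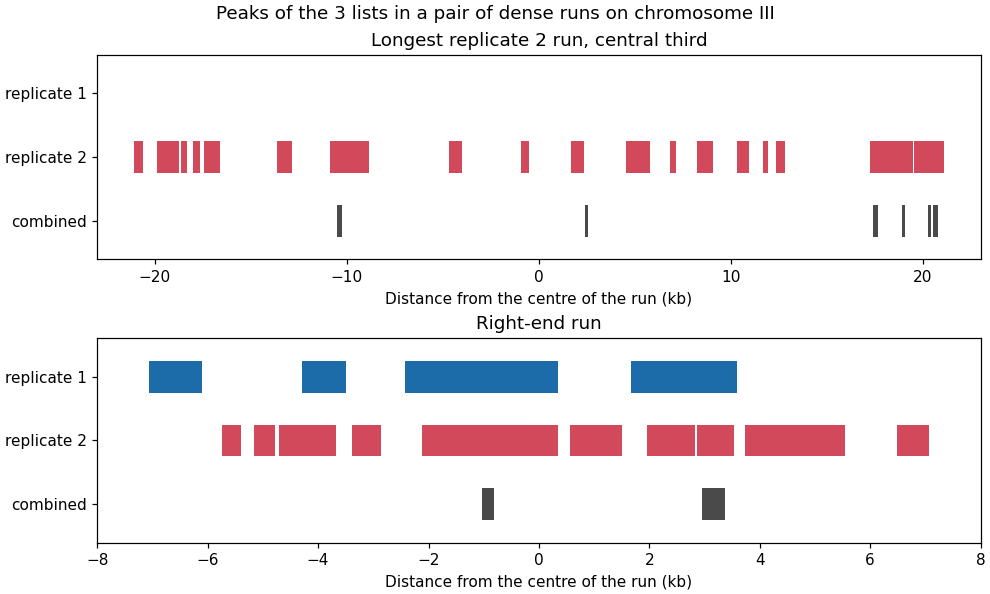
Extent of the peaks of the 3 lists, in kb from the centre of each run. The upper panel shows the run of 18 replicate 2 peaks, with 6 combined and no replicate 1 peaks; the lower panel shows the right-end run, with 4, 10 and 2 peaks in replicate 1, replicate 2 and the combined list.

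Most replicate 1 peaks on III were found again in the second library. Counting any overlap from 1 bp up, 10 of 13 were shared (76.9%, 46.2 to 94.96%, background 74.3%). Seen from the other side, 11 of 136 replicate 2 peaks on III overlapped a replicate 1 peak (8.09%, 4.11 to 14.0%), the lowest share of the 6 chromosomes, against a background of 17.3%. This share depends on list size: III had 13 replicate 1 peaks to 136 of replicate 2, and the other 5 chromosomes had 140 to 653. The median replicate 2 score was 238 for the 11 overlapping peaks and 86.0 for the other 125, and the median widths were 960 and 407 bp. On the other 5 chromosomes the median scores were 177 and 99.3. Both replicate lists covered the same 15555 bp of III, 82.9% of the length called in replicate 1 and 14.97% of that in replicate 2, against 82.6% and 19.3% on the other chromosomes.

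The 11 overlapping pairs fell into a closely matched and a loosely matched set. The 7 pairs outside the right-end run had left edges 1 to 28 bp apart and right edges 1 to 155 bp apart, and at least 85.5% of each replicate 1 peak was covered. In the 4 pairs of the right-end run the left edges were 300 to 1190 bp apart and the right edges 5 to 771 bp apart. The closest match was at 3334247 to 3337075, where peaks of 2829 and 2826 bp began 1 bp apart and ended 2 bp apart. At 2496945 to 2501980, peaks of 5036 and 5026 bp, the widest of both lists on III, began 3 bp and ended 13 bp apart. Narrow peaks matched about as well: at 3499887 the peaks were 262 and 251 bp wide with left edges 4 bp apart, and at 6013026 they were 275 and 260 bp wide with right edges 1 bp apart. In 6 of the 7 pairs outside the run, the replicate 2 peak lay wholly within the replicate 1 peak, and the pair at 2496945 was the exception.

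**Figure D4:**
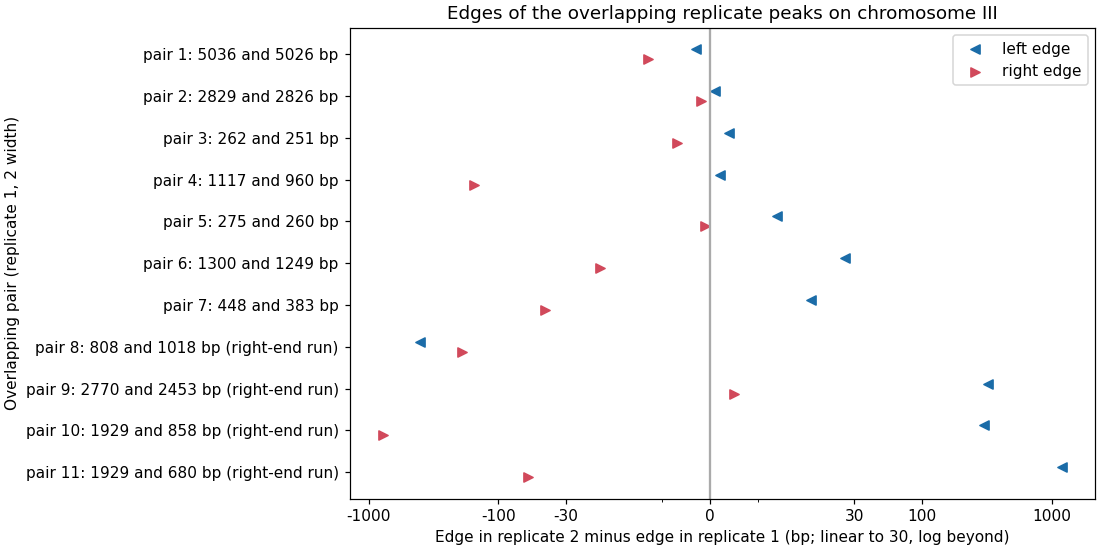
Distance in bp between the left edges and between the right edges of each overlapping replicate pair on III, replicate 2 minus replicate 1, on an axis that is linear to 30 bp and logarithmic beyond; widths are given for replicate 1 and then replicate 2. Left edges of the first 7 pairs lie within 28 bp of zero, and those of the 4 pairs in the right-end run are 300 to 1190 bp away.

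The order of scores within each list differed between well-matched peaks. The peak at 7941667 to 7942966 was rank 1 of 13 in replicate 1, with 2057.16, and rank 5 of 136 in replicate 2, with 1600.87. The peak at 3818673 to 3819789 was rank 2 in replicate 1, with 458.99, and rank 12 in replicate 2, with 518.12. The 5036 bp peak at 2496945 had rank 6 in replicate 1, with 153.66, and rank 1 in replicate 2, with 3100. That same value was also the highest replicate 2 score on I, II and X, and V had a higher one, 3233.06. A score of 3100 thus does not set this peak apart from peaks of other chromosomes. The peak at 3334247 had rank 4 in replicate 1, with 180.08, and rank 3 in replicate 2, with 2427.13. The narrow peaks at 3499887 and 6013026 had ranks 8 and 9 of 13 in replicate 1, with 75.89 and 75.23. In replicate 2 their ranks were 87 and 82 of 136, with scores of 72.67 and 74.03. Over the 11 pairs the rank correlation of the scores was 0.67 (Spearman), a description of points that include 1 replicate 1 peak in 2 pairs.

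Wider peaks had higher scores in replicate 2 on III (Spearman rank correlation 0.74 over 136 peaks, 0.79 over the 653 elsewhere). In replicate 1 the correlation on III was 0.09 over 13 peaks, and 0.41 over the 140 elsewhere. In the combined list it was 0.13 over 106 peaks, and 0.29 over the 719 elsewhere. Each value describes peaks of 1 list, which share a caller and, in the replicate lists, a library.

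**Figure D5:**
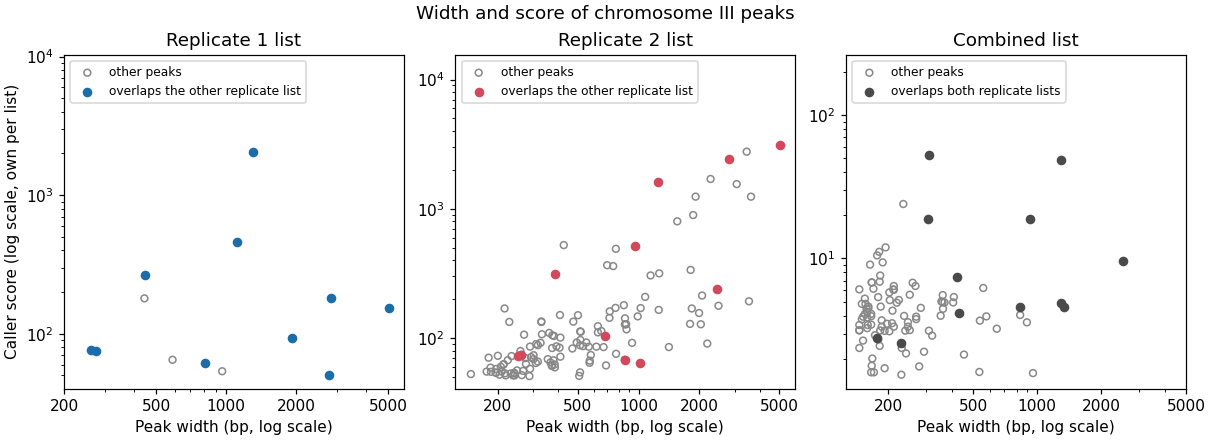
Peak width against the caller's score on III, both on log axes, in each list; filled points overlap the other replicate list or, for the combined list, both replicate lists. Scores have their own scale in each list; the widest peak has the highest score in replicate 2, and in the combined list the top score of 52.39 belongs to a peak of 309 bp.

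Of the 3 replicate 1 peaks that had no replicate 2 partner, each was a different case. The one at 13584735, the left edge of the right-end run, lay 359 bp from a replicate 2 peak. The one at 5507888 to 5508474, with a score of 64.89, lay 149 kb from the nearest replicate 2 peak and overlapped no combined peak. The one at 3867322 to 3867765 had a score of 180.08, tied at rank 4 of the 13, and lay 28.5 kb from the nearest replicate 2 peak. It held a combined peak of 235 bp at 3867426 to 3867660 with a score of 23.96, rank 3 of the combined scores on III and the only III combined peak seen in replicate 1 alone. This made 1 of 106 combined peaks (0.943%, 0.0239 to 5.14%, background 4.03%).

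The largest class of combined peaks on III overlapped replicate 2 alone. It held 58 of 106 peaks (54.7%, 44.8 to 64.4%), the highest share of the 6 chromosomes, against a background of 42.7%. A further 12 overlapped peaks of both replicates (11.3%, 5.99 to 18.9%, background 20.3%), and 35 overlapped neither (33.0%, 24.2 to 42.8%, background 33%). These shares depend on list size too, and III had the fewest replicate 1 peaks of the 6 chromosomes. The 12 were wider, with a median of 628.5 bp, against 238.5 bp in replicate 2 alone and 177 bp in neither. Their median combined score was 6.20, against 3.985 in replicate 2 alone and 3.71 in neither. Highest among the 35 peaks in neither list was 11.95, at 12904949 to 12905142, and highest among the 58 was 11.13, at 10759015 to 10759195.

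The 12 combined peaks in both lists lay in 9 replicate 1 peaks, since 4 of them lay in the 5 kb replicate peaks at 2496945. Those 4 peaks were 177, 830, 1338 and 1301 bp wide, covered 72.5% of the replicate 2 peak and scored between 2.79 and 4.91. The replicate 2 peak that they divide had the highest score of that list on III. At 3334308 to 3336844 the combined list instead kept 1 peak of 2537 bp, its widest on III, with a score of 9.66. The 5 highest combined scores on III were 52.39, 48.72, 23.96 and a tie at 18.89. All 5 were among the 10 highest nuclear combined peaks (50%, 18.7 to 81.3%), and no more were among the 20 highest (25%, 8.66 to 49.1%), where III held 12.8% of the list. In replicate 1, 3 of the 10 and 5 of the 20 highest nuclear peaks were on III, which held 8.50% of the list. In replicate 2, 1 of the 10 and 4 of the 20 highest were on III (10% and 20%), which held 17.2% of the list.

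The highest combined and the highest replicate 2 scores on III lay mostly at different places, and 1 of the 5 highest combined peaks overlapped 1 of the 5 highest replicate 2 peaks. For replicate 1, 4 of the 5 highest combined peaks overlapped 1 of its 5 highest peaks. The counts are not alike, since the 5 highest come from 13 peaks in replicate 1 and from 136 in replicate 2. Of the 5 highest combined peaks, only the one at 3867426 overlapped no replicate 2 peak of any rank. The highest combined score, at 8043732 to 8044040, matched replicate peaks of 448 and 383 bp that had rank 3 of 13 in replicate 1, with 267.27, and rank 18 of 136 in replicate 2, with 313.44. In turn, the second highest replicate 2 peak, 3442 bp at 1017271 to 1020712 with a score of 2767.16, held 4 combined peaks that scored between 3.24 and 4.94. It had no replicate 1 peak. A 3070 bp peak at 1300149 with a score of 1553.10 held 3 combined peaks with scores of 1.62 to 4.04. A pair of adjoining peaks at 5353043 and 5356660, 3616 and 1920 bp wide with a gap of 1 bp, scored 1241.99 and 1242.61 and held 4 and 1 combined peaks. Neither of the pair overlapped a replicate 1 peak. The place among the 5 highest of both the combined list and replicate 2 was 7941633 to 7942924, with 48.72 in the combined list and rank 5 in replicate 2.

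Of the 136 replicate 2 peaks on III, 51 held a combined peak (37.5%, 29.4 to 46.2%), the lowest share of the 6 chromosomes, against a background of 45.6%. That share depends on list size as well, with 106 combined peaks on III, and 719 combined to 653 replicate 2 peaks elsewhere. The median score of the 51 was 104, against 85.3 for the 85 without one. The 51 had a lower median width, 383 bp against 474 bp, but this did not hold for the widest peaks. Of the 27 peaks over 1 kb wide, 17 held a combined peak, against 34 of the 109 up to 1 kb. The 37 peaks that held 1 combined peak had a median width of 326 bp. These counts by width were made for III alone. On the other 5 chromosomes the replicate 2 peaks with a combined peak were wider, with medians of 602.5 and 406 bp. They too had higher scores there, with medians of 170 and 86.9. Among the 20 highest replicate 2 scores on III, 15 held a combined peak and 6 a replicate 1 peak. The 5 without a combined peak began at 931100, 1299679, 3897001, 3986988 and 7407201 and scored between 305.50 and 524.55. In replicate 1, 10 of 13 peaks held a combined peak (76.9%, 46.2 to 94.96%, background 83.6%).

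The ends of III and its empty stretches also differed between the lists. Replicate 2 began with a 216 bp peak at base 1 with a score of 169.66, which no peak of the other lists overlapped. The first combined peak lay at 267635 to 267843, and the first replicate 1 peak at 2496945. At the right, replicate 2 ended with a 329 bp peak at 13750112 to 13750440 that scored 133.19, and the combined list with a 166 bp peak at 13753918 to 13754083 that scored 1.61. The last peaks of both lists were 3.48 kb apart and did not overlap. The longest stretch without a peak ran over 5.54 Mb in replicate 1, at 8044133 to 13584734, from the narrow central peak to the right-end run. No other chromosome had a longer one in that list, where the next was 3.27 Mb on IV. Such lengths depend on the number of peaks, and III had the fewest replicate 1 peaks of any nuclear chromosome, with 13. In replicate 2 the longest stretch without a peak was 1.33 Mb at 8898087 to 10224260, and in the combined list 1.17 Mb at 9054058 to 10224687. Both of these ended at the same broad place, where replicate 2 had a 3533 bp peak at 10224261 with a score of 192.82 and the combined list had 3 peaks.

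When all 3 lists were chained over gaps of up to 5 kb, III held 91 separate places. Of these, 8 had peaks of all 3 lists, 26 of replicate 2 and the combined list, and 1 of replicate 1 and the combined list. A further 30 had replicate 2 peaks alone, 25 combined peaks alone and 1 a replicate 1 peak alone. No place had peaks of both replicates without a combined peak. These counts were made for III alone, so they have no background on the other chromosomes to be set against.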

How the data were processed

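Peak lists were used for 2 IgG ChIP libraries, with 1 combined list of the series. WormBase WS220 is the build, per the file headers. The source field names MACS for the peaks that the authors deposited per library and a later MACS version for the combined list. The deposited score has no named scale. Aligner, control, filters, threshold and how replicates were combined: not given in the sources used here. Depth is unknown, so its precision cannot be given.

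The software was SciPy 1.17.1, pandas 2.3.3 and NumPy 2.4.6 under Python 3.11.15, with figures from Matplotlib 3.10.9. Overlap required 1 bp. Intervals for shares are exact Clopper-Pearson 95% intervals, and those for densities are exact Poisson. No test was run: a group holds 1 list per library, and peaks are not replicates. Overlap and chaining were tested on simulated data.

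Named regions were the peaks of both replicates, the 5 highest scores, ends, widest peaks, runs and longest gaps of each list. Regions named for their rank in another list, and replicate 2 peaks without a combined peak, were chosen after their values were seen. The chromosome, regions and sections were chosen with earlier results of these data known.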

Additional observations from a re-analysis of the deposited data

How the results depend on the processing

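Of 49 comparisons with an alternative, 30 stayed within the exact 95% interval of the reported value and 19 did not. The share in the central 50% of the extent, 43.4%, was judged after scaling to the even share. The share of nuclear peaks on III, 12.8% in the combined list, was 8.50% in replicate 1, 17.2% in replicate 2 and 7.59% among combined peaks in both replicate lists. The central-third share of 34.0% was 25% among combined peaks in both lists and 23.4% in replicate 2 after chaining over 5 kb, against 27.9 to 35.0% under the other settings with 3 sections. The density of 7.71 peaks per Mb was 0.945 in replicate 1, 9.89 in replicate 2, 3.71 at or above the median combined score, 0.872 in both replicate lists, 5.60 merged within 1 kb, 4.94 with 1 peak per 10 kb, and 4.58 (combined) or 4.65 (replicate 2) after chaining, all settings that hold other numbers of peaks. The median width of 210 bp was 961 bp in replicate 1, 417 bp in replicate 2, 628.5 bp in both lists, and 242 bp (combined) or 640.5 bp (replicate 2) after chaining. With every list limited to scores at or above its median, 54.9% of combined peaks on III were in neither replicate list, against 33.0%, with fewer replicate peaks left to overlap. The shares of replicate peaks in the other replicate list stayed within their intervals under all 3 alternatives, at 76.9 to 85.7% for replicate 1 and 8.09 to 11.8% for replicate 2. Without the combined peaks in and just right of the right-end run, the share, density, central share and median width stayed within their intervals, and the sharing between lists was not recomputed. Chaining was added after the data were seen. No paired analysis was possible because pairing needs an input peak list, and none was analysed here.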
